A study of Mus musculus with 4 samples.

Results

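Cytochrome c oxidase, complex IV of the respiratory chain, was followed through 10 nuclear genes that encode alternative forms of 5 of its subunits: Cox8b and Cox8a, Cox7a1 and Cox7a2, Cox6a2 and Cox6a1, Cox4i2 and Cox4i1, and Cox6b2 and Cox6b1. They are 10 of 34741 genes on the array, a count that includes array names without a gene symbol. A gene was included when the gene name of a probe in the scanner files was one of these symbols. The family was chosen by looking at these data: the differences of Cox8b and Cox6a2 between the daidzein arrays and their comparison arrays were known beforehand, so the values of the members are a description and carry no test. RNA came from 3T3-L1 cells, a mouse fibroblast line, differentiated into adipocytes and kept for 7 days with PBS (the control), 25 uM daidzein, a soy isoflavone, 100 ug/ml of PT, an extract of pig testis, or daidzein+PT. Each of these 4 groups was read on 1 single-colour oligonucleotide array, so no comparison has a replicate. The series title concerns the expression of adiponectin.

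Complex IV passes electrons from cytochrome c to oxygen and pumps protons across the inner mitochondrial membrane. Its catalytic core is encoded by mitochondrial DNA and is surrounded by small nuclear-encoded subunits, several of which exist as a ubiquitous (liver-type) form and a form made mainly in heart, skeletal muscle and, in rodents, brown fat. Cox6a2, Cox7a1 and Cox8b are the muscle and brown-fat forms, and Cox7a1 and Cox8b are widely used as markers of brown and beige adipocytes. Cox4i2 is known from lung and from the response to low oxygen, and Cox6b2 from testis.

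The sequences before the gene starts are shown for the isoforms that were higher with treatment, each with its ubiquitous partner, because the pairs differ visibly in CpG dinucleotides, which are in capitals. The windows are the 250 bases before the start annotated by RefSeq on GRCm38.p6, 5′ to 3′ on the strand of the gene. Cox8b lies at chr7:140900447-140900696 (minus strand), Cox8a at chr19:7217617-7217866 (minus), Cox7a1 at chr7:30183921-30184170 (plus) and Cox7a2 at chr9:79759854-79760103 (minus).
Cox8b: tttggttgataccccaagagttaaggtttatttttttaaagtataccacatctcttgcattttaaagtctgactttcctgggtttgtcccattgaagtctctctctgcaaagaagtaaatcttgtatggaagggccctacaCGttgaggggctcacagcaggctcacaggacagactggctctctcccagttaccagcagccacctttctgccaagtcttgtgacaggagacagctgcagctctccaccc
Cox8a: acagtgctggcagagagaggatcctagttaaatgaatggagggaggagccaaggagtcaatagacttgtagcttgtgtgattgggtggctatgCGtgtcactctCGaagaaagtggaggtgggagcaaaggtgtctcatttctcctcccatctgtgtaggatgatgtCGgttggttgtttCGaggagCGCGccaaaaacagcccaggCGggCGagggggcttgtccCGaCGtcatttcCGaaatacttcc
Cox7a1: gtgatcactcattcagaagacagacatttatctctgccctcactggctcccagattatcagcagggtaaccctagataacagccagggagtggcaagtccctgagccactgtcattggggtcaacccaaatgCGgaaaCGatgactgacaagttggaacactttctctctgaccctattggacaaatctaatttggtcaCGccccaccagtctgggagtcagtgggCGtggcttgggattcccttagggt
Cox7a2: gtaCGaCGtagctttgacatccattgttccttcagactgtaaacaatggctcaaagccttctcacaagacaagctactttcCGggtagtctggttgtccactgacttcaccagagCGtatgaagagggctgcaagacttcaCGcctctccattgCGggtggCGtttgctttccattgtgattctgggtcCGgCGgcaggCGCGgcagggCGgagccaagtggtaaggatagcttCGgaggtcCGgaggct

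The Cox8b window held 1 CpG and the Cox7a1 window 4, against 11 for Cox8a and 14 for Cox7a2. The median over 32851 windows of the same length was 6, and 18.8% of them held as few CpG as Cox8b and 44.4% as few as Cox7a1. Of the 10 genes 7 had a window in this set. Cox6a2, Cox4i1 and Cox4i2 did not, although their probes are assigned to RefSeq transcripts. The other windows were Cox6a1 with 26 CpG, Cox6b1 with 14 and Cox6b2 with 8. Whether CpG content goes with the differences between arrays was not tested. Motifs were searched on both strands. The NRF1 motif was present at 2 places before Cox6a1 and in 3.74% of all windows. The E-box CANNTG was present in 5 of the 7 windows, among them those of Cox8b and Cox7a1, and in 66.2% of all windows. The PPAR/RXR direct repeat (0.0335% of all windows), the estrogen-related receptor element AAGGTCA (4.08%, which can overlap that repeat), the ETS site ACTTCCGG (2.88%) and the MEF2 core (3.2%) were in none of the 7. A match or its absence concerns only these letters in these windows.

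Each gene was read by 1 probe of 60 bases, except Cox8a, which had 2, and all 11 probes were well above background on all 4 arrays. On mouse build mm9 the Cox8b probe lies on chromosome 7 from 148084852 to 148084911, the Cox6a2 probe on chromosome 7 from 135349160 to 135349219, and the Cox7a1 probe on chromosome 7 from 30970337 to 30970948. The Cox7a1 probe covers 612 bases of the genome with 60 bases, so it crosses a junction between exons. The Cox6b1 probe, which covers 1497 bases, does so too. The Cox7a1 probe is shown because Cox7a1 was the member with an interaction of 2-fold or more. Whether the other probes lie in coding sequence or a UTR was not analysed here.
Cox7a1 probe: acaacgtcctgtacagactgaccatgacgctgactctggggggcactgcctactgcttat

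The probes of partner genes shared no run of more than 7 identical bases (6 for Cox8b with Cox8a and for Cox7a1 with Cox7a2, 4 for Cox6a2 with Cox6a1). Signals below are the processed signal of the scanner software in linear units. Differences are log2 differences after each array was scaled to its own 75th percentile. Signals of different probes are not compared, since a probe's brightness depends on its sequence.

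The arrays had 59305 non-control spots each, 49.7% to 51.4% of them well above background and none saturated. The detection flag was met in all groups by 18242 genes. These, and the shares of all genes given below, also include array names without a gene symbol. The slide was shared, with the arrays without PT in row 1 and those with PT in row 2, so PT and slide row cannot be told apart. Of 6 adipocyte markers 5 were well above background on every array and leptin (Lep) on none. In place of replicate error, each gene is given an SD from the genes nearest to it in signal. It is the SD of their interaction (log2 difference for PT on the daidzein background less that on the PBS background), divided by the square root of 2 to stand for 1 pair of arrays. Real interactions widen it. Dim genes had larger SDs, such as 0.31 for Cox6b2, with a signal of 68.7 on PBS. Cox8b had 48.7 on PBS and 787 on daidzein+PT, and its SD of 0.19 goes with its mean. That SD may therefore be too small for the Cox8b differences from PBS.

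**Figure D1:**
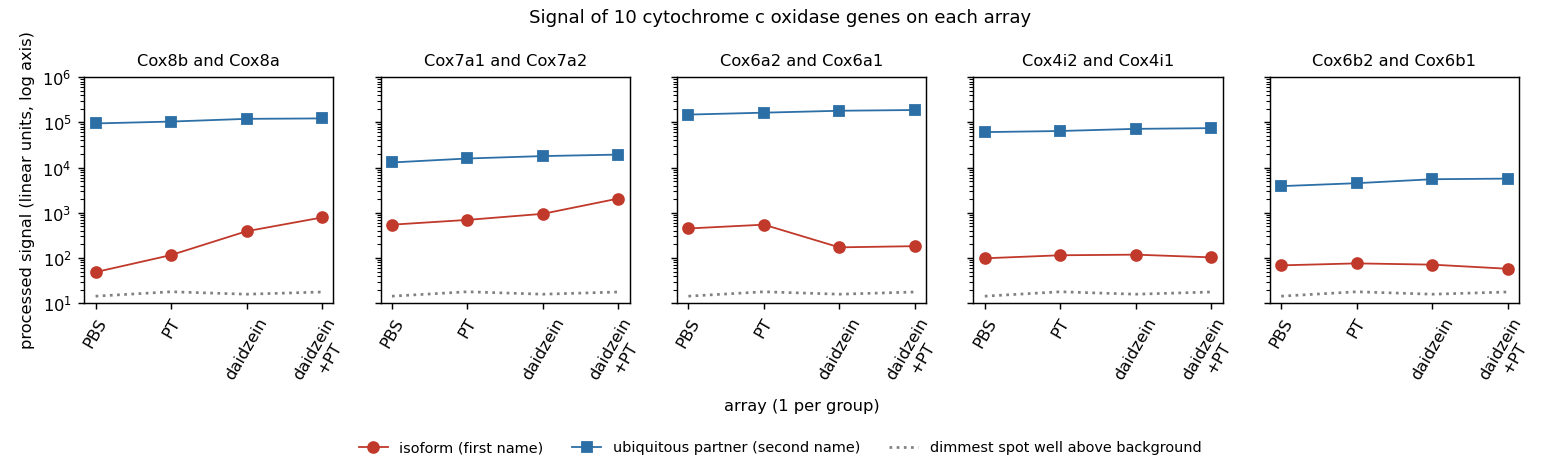
Processed signal of each gene (log axis, linear units, before scaling between arrays) on the 4 arrays, 1 panel per isoform pair, with the isoform as circles, the ubiquitous partner as squares and the dimmest spot well above background as a dotted line; lines join the arrays for reading only. Cox8b runs from 48.7 on PBS to 787 on daidzein+PT, Cox6a2 is lower on both arrays with daidzein, and the partners lie nearly level.

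Daidzein over PBS shows the isoflavone alone. Cox8b, the muscle and brown-fat form of the smallest subunit, was 7.35-fold higher, Cox6a2 was 2.86-fold lower, and Cox7a1 was 1.59-fold higher. Cox8b and Cox6a2, both muscle and brown-fat forms, thus lay on opposite sides of the control. In bulk RNA, fewer cells of a type and less RNA per cell cannot be told apart. The signal of Cox8b was 48.7 on PBS and 390 on daidzein, a log2 difference of 2.88 (SD 0.19), or 1.92 with normexp background correction. That of Cox6a2 was 450 and 172, a log2 difference of -1.51 (SD 0.15). That of Cox7a1 was 546 and 949, a log2 difference of 0.67 (SD 0.15). Cox8b was 14th from the highest of 18901 genes and Cox6a2 11th from the lowest. Of the 10 members 1 was at least 2-fold higher, where 1.1% of all genes were, and 1 was lower by 2-fold or more, where 0.365% were; the choice of the family rests on this comparison.

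The ubiquitous partners were all slightly higher with daidzein, from 0.11 to 0.38 on the log2 scale, while the median over all genes was -0.03. Cox6b1, which joins the monomers of the enzyme, had a log2 difference of 0.38 (SD 0.11), Cox7a2 0.34 (SD 0.11), Cox8a 0.21 (SD 0.10), Cox6a1 0.16 (SD 0.10) and Cox4i1, the ubiquitous form of the regulatory subunit, 0.11 (SD 0.13). Cox8a, for example, had signals of 94567 on PBS, 119473 on daidzein, 104070 on PT and 122180 on daidzein+PT, and its second probe gave 0.29 where the first gave 0.21. Cox7a2 had 12962, 17952, 15868 and 19351 in the same order, and Cox6a1 148448, 180471, 163714 and 187499. After scaling each was highest on daidzein+PT, and Cox8a and Cox6a1 were lowest on PT, at -0.03 against PBS (0.04 with quantile normalization), and Cox7a2 on PBS. The 5 differences were above 0 under every scaling tried, with Cox4i1 lowest at 0.04 under scaling to the array median. Set against its partner, Cox8b differed by 2.67 (SD 0.21) and Cox6a2 by -1.67 (SD 0.18), values that the choice of the family already used, and Cox7a1 by 0.33 (SD 0.18). Cox4i2, with signals of 98.5 and 119, and Cox6b2, with 68.7 and 71.2, had log2 differences of 0.14 (SD 0.26) and -0.07 (SD 0.31), both smaller than the SD.

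With PT already present (daidzein+PT over PT) the daidzein difference could be read in a second pair that shares no array with the first. The Cox8b and Cox6a2 differences of this pair were also known when the family was chosen, so they are no independent check. Cox8b had a signal of 116 on PT and 787 on daidzein+PT, a log2 difference of 2.98, and Cox6a2 one of 546 and 183, a log2 difference of -1.36. Without PT they were 2.88 and -1.51. With normexp the Cox8b values were 2.44 with PT and 1.92 without. Cox7a1 had signals of 696 and 2066 and a log2 difference of 1.78, against 0.67 without PT. In this pair 2 members were at least 2-fold higher (background 2.1%) and 1 at least 2-fold lower (background 0.865%). Cox8b was at least 2-fold higher in both daidzein pairs, as were 0.894% of 18242 genes, and Cox6a2 at least 2-fold lower in both, as were 0.164%. The ubiquitous partners lay between 0.41 and 0.55, and the isoform minus partner differences were 2.53 for Cox8b, 1.28 for Cox7a1 and -1.77 for Cox6a2.

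**Figure D2:**
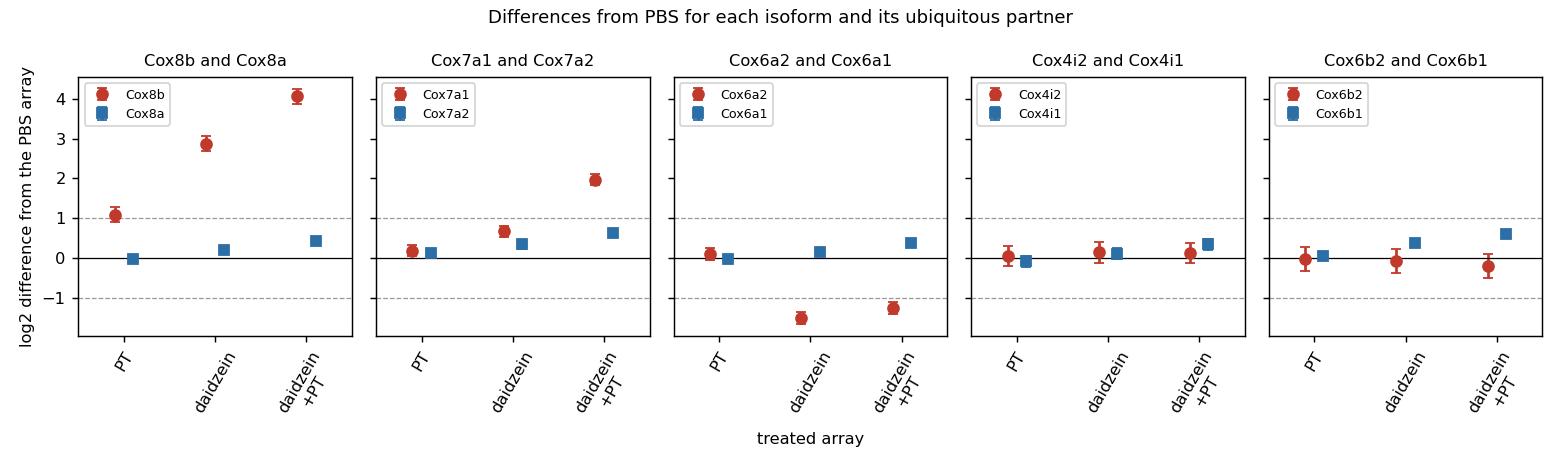
Log2 difference of each treated array from the PBS array for each isoform (circles) and its ubiquitous partner (squares). Bars are the SD of a difference between 2 arrays for genes of like mean signal over the 4 arrays, and dashed lines mark 2-fold. Cox8b reaches 4.06 and Cox7a1 1.97 with daidzein+PT, Cox6a2 lies at -1.51 and -1.25 on the arrays with daidzein, and the squares stay between -0.09 and 0.63.

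PT over PBS shows the extract alone. Cox8b was 2.12-fold higher, with signals of 48.7 and 116 and a log2 difference of 1.08 (SD 0.19). It was the only member at 2-fold, where 0.878% of all genes were higher by that much, and 0 members were at least 2-fold lower, where 0.0639% were. That difference was under 2-fold with normexp background correction (0.53), with quantile normalization (0.97), with array median scaling (0.84) and in the deposited table (0.97). Cox7a1 was at 0.18 (SD 0.15) and Cox6a2 at 0.11 (SD 0.15), and the partners lay from -0.09 to 0.13, on both sides of 0. Cox4i2 had a signal of 115 on PT and Cox6b2 one of 76.0, with differences of 0.06 and -0.02. Scaling to the array median moved the median of all genes from -0.02 to -0.27 in this comparison, with Cox7a1 then at -0.06, Cox6a2 at -0.14 and the partners from -0.33 to -0.12; relative to that median the members kept their places. The difference of Cox8b from Cox8a, which no such scaling alters, was 1.11 (SD 0.21), and the differences of Cox7a1 and Cox6a2 from their partners were 0.06 and 0.14, within the SD of 0.18.

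With daidzein present (daidzein+PT over daidzein), Cox7a1 and Cox8b were the 2 members at least 2-fold higher, where 1.08% of all genes were, and none was at least 2-fold lower, where 0.102% were. Cox8b, at 390 and 787, differed by 1.19 on the log2 scale, where the pair lacking daidzein gave 1.08 (1.06 and 0.53 with normexp). It was at least 2-fold higher in both PT pairs, as were 0.153% of genes, but not under the 4 settings in which the PT over PBS difference was below 2-fold. Cox7a1, the muscle and brown-fat form of the subunit at the dimer interface, had signals of 949 and 2066 and a log2 difference of 1.30, whereas PT alone gave 0.18. Cox6a2, at 172 and 183, had 0.26. The partners lay between 0.21 and 0.28 with the 75th percentile and between 0.06 and 0.14 with array median scaling, which put the median of all genes at -0.14. Against their partners, Cox7a1 differed by 1.01 (SD 0.18), Cox8b by 0.98 (SD 0.21) and Cox6a2 by 0.03 (SD 0.18).

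**Figure D3:**
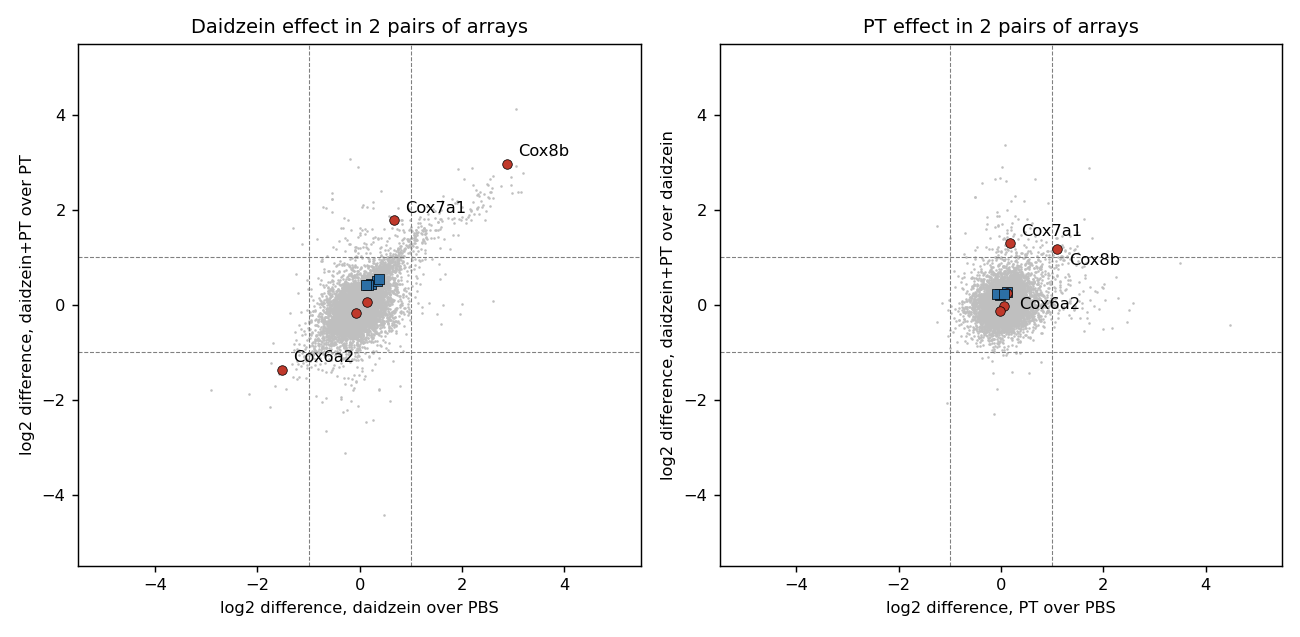
Log2 difference of 18242 genes (grey) in the pair of arrays without the other treatment (horizontal) and with it (vertical), for daidzein (left) and PT (right), with isoforms as circles, ubiquitous partners as squares and dashed lines at 2-fold. Cox8b lies at 2.88 and 2.98 for daidzein and at 1.08 and 1.19 for PT, while Cox7a1 lies higher on the vertical axis (0.67 and 1.78, 0.18 and 1.30).

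Daidzein+PT over PBS gave the highest Cox8b and Cox7a1 signals of the 4 arrays. Cox8b was 16.7-fold higher (log2 4.06, or 2.97 with normexp) and was 5th from the highest of 18449 genes. Cox7a1 was 3.91-fold higher (log2 1.97), and Cox6a2 was 2.38-fold lower (log2 -1.25). So 2 members were at least 2-fold higher (background 2.53%) and 1 at least 2-fold lower (background 0.553%). The partners ranged from 0.34 for Cox4i1 to 0.63 for Cox7a2, with a median of 0.42 against -0.03 for all genes; with array median scaling they ranged from 0.12 to 0.41 against a median of all genes of -0.24. Cox8b minus Cox8a was 3.65 (12.5-fold, SD 0.21), Cox7a1 minus Cox7a2 1.34 (2.54-fold, SD 0.18) and Cox6a2 minus Cox6a1 -1.64 (3.11-fold lower, SD 0.18). Cox4i2 had a signal of 103 and a log2 difference of 0.12 and Cox6b2 one of 57.8 and -0.20, both within their SDs of 0.26 and 0.31. Cox6b2, the testis form, stood lower against Cox6b1 (-0.80, SD 0.33), since Cox6b1 itself had 0.60, and Cox4i2 minus Cox4i1 was -0.22 (SD 0.29).

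Whether the treatments added up on the log2 scale differed between the members. For Cox8b the separate differences sum to 3.96 and 4.06 was measured, an interaction of 0.10 (SD 0.27), which was 0.53 with normexp and 0.20 to 0.21 with the other scalings and the deposited table. For Cox6a2 they sum to -1.40 and -1.25 was measured, an interaction of 0.15 (SD 0.21). For Cox7a1 they sum to 0.85 and 1.97 was measured, an interaction of 1.11 (SD 0.21). Cox7a1 was the 1 member with a positive interaction of 2-fold or more, as were 0.68% of 18242 genes, and among the genes nearest to it in signal 2, itself included, had one as large. Its interaction was between 1.02 and 1.21 under the alternatives. The partners had interactions from 0.16 to 0.31, from 0.03 to 0.20 with quantile normalization and from 0.26 to 0.41 with array median scaling. The interaction sets the PBS and daidzein+PT arrays against the other two, each at its own place on the slide, and it was not tested.

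The genes most like a member were found by the distance between their 3 log2 differences over PBS and the member's, over 4 arrays and among 13004 named genes well above background on all of them. For Cox8b these were the monoglyceride lipase Mgll (distance 0.17), the acute-phase glycoprotein Orm2 (0.18), adipsin Cfd (0.28), the insulin-responsive glucose transporter Slc2a4 (0.38) and the fatty acid transporter Cd36 (0.38). For Cox7a1 they were Selenbp1 (0.26), Clstn3 (0.28), Angpt4 (0.29), Mb21d2 (0.30) and Asgr2 (0.35). For Cox6a2 they were Sapcd1 (0.22), Mamstr, a coactivator of the MEF2 family (0.25), Ifi27l2a (0.30), the gelatinase Mmp9 (0.31) and the transporter Abca8a (0.34). The order within each group rests on differences smaller than the SDs.

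Since Cox8b and Cox7a1 mark brown fat and all 3 isoforms mark muscle, the other markers of those cells were read on the same arrays. Of 10 brown or beige adipocyte markers 4 were well above background on all arrays, and Ucp1, Elovl3, Prdm16 and Tmem26 on none. Summed over the list, the signal was 0.964 times the array's 75th percentile on PBS, 0.867 on daidzein, 1.41 on PT and 0.872 on daidzein+PT. The PT sum was carried by Tbx1, with a signal of 148 on PT and not well above background on the other arrays; without it, a choice made after seeing the data, the sums were 0.955, 0.86, 1.06 and 0.862. Of the 4 genes read on PBS and daidzein+PT 1 was above 0, Ebf2 at 0.78 (SD 0.40), and the lowest was Dio2 at -0.48 (SD 0.43). Dio2, which was dim, was at 0.58 for daidzein over PBS. Cidea, also dim, was well above background only on the arrays without daidzein, with signals of 25.1 on PBS and 38.2 on PT. Adipocyte markers, by contrast, summed to 80.4 on PBS, 176 on PT, 489 on daidzein and 793 on daidzein+PT, the same order as Cox8b; their part in the Cox8b result was not tested. Of 14 skeletal muscle markers 7 were well above background on no array, among them Myod1, Myog and Ckm. The muscle sums were 2.07 on PBS, 2.28 on PT, 1.42 on daidzein and 1.43 on daidzein+PT. That drop was carried by Tnni2, the inhibitory troponin of fast muscle, with signals of 350, 448, 114 and 86.6 in the same order. Without it, again chosen after seeing the data, the other 13 markers summed to 1.12, 1.21, 1.14 and 1.19. That was slightly higher on daidzein than on PBS and slightly lower on daidzein+PT than on PT. The brightest of the 13 was Acta1, with signals before scaling of 240, 277, 296 and 265 in the same order. After scaling, Acta1 was 0.15 higher on the log2 scale on daidzein+PT than on PT, where the sum was slightly lower. The sums thus do not follow that gene alone. Of the 4 muscle markers read on both PBS and daidzein 2 were above 0 (Tnnc2 0.43, Acta1 0.18) and 2 below (Tnni2 -1.75, Actn3 -0.70). Myl1 was well above background only on the arrays with daidzein, Tnnt3 only on those without it, and Myh1 only on PBS. The part of muscle-type genes in the Cox6a2 result was not tested. Of 6 heart muscle markers 2 were well above background on all arrays. The sums over all 6 were 0.303 on PBS and on PT, 0.224 on daidzein and 0.219 on daidzein+PT. Tnnt2, which was dim, had signals of 44.5 on PBS, 47.6 on PT, 25.4 on daidzein and 20.5 on daidzein+PT. Myh6 was also lower on the arrays with daidzein but was well above background on none. Preadipocyte or fibroblast markers, all 7 well above background, summed to 712 on PBS, 706 on PT, 562 on daidzein and 591 on daidzein+PT. Macrophage markers (3 of 5 on all arrays) summed to between 28.4 and 30.9, and markers of testis germ or Leydig cells (3 of 8) to between 5.45 and 6.36. These sums mostly follow the brightest gene of each list. On PBS Itgam had a signal of 10600, where the next macrophage marker, Csf1r, had 536. Cyp17a1 had 2290, where the next testis marker, Prm2, had 22.0.

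No other listed complex IV gene well above background on all arrays reached 2-fold. Few genes of any kind did for daidzein+PT over PBS: 2.53% passed upward and 0.553% downward. With lists this short, a count of 0 is near those shares and does not by itself set the isoforms apart. Of all genes in that comparison, 45.3% were above 0. Of 12 other subunits 10 were well above background on all arrays, all but the testis forms Cox7b2 and Cox8c, and for daidzein+PT over PBS all 10 were above 0 with a median of 0.41, close to that of the ubiquitous partners, and none reached 2-fold. The highest were Cox5b (0.60) and Ndufa4 (0.54) and the lowest Cox7a2l, which helps to form supercomplexes (0.07), and the mitochondria-encoded mt-Co3 (0.13). With array median scaling 7 of the 10 were above 0 (median 0.19). Medians were 0.22 for daidzein over PBS (7 of 10 above 0) and -0.02 for PT over PBS (4 of 10). Of 25 assembly factors 24 were on the array and 22 well above background on all 4. For daidzein+PT over PBS 21 of them were above 0, with a median of 0.28 (0.06 and 15 of 22 with array median scaling) and none at 2-fold. The highest were the translational activator Taco1 (0.64) and the haem A synthase Cox15 (0.57), and the lowest the copper chaperone Sco2 (-0.07) and Surf1 (0.11). Medians were 0.16 for daidzein over PBS and -0.03 for PT over PBS.

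**Figure D4:**
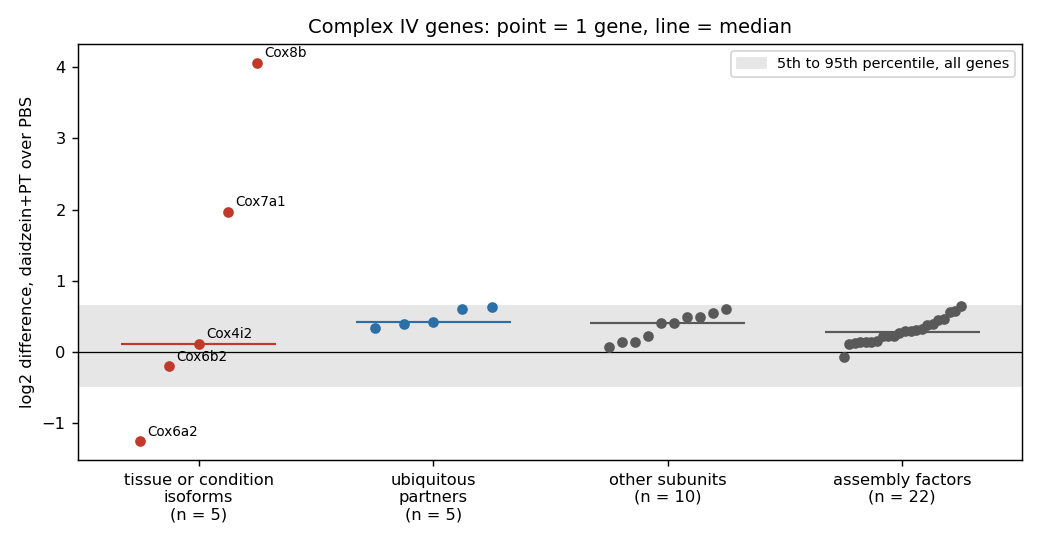
Log2 difference of daidzein+PT over PBS for complex IV genes well above background on all 4 arrays (point, 1 gene; line, median of the group; grey band, 5th to 95th percentile of 18242 genes, -0.48 to 0.64). Cox8b and Cox7a1 lie above the band and Cox6a2 below it, whereas partners, other subunits and assembly factors lie within it or at its upper edge.

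Among 15 regulators known to act on mitochondrial or isoform genes, 12 passed the background flag on every array. For daidzein+PT over PBS the highest were Pparg (1.80), the master regulator of adipocyte genes, and the coactivator Ppargc1b (1.48, SD 0.43, dim), and the lowest were Ppargc1a (-0.27) and Hif1a (-0.26), the oxygen-regulated factor. The median of the 12 was -0.04, against -0.03 for all genes, and Pparg and Ppargc1b were the 2 at 2-fold. For daidzein over PBS Pparg was at 1.03 and Ppargc1b at 1.25, and for PT over PBS they were at 0.40 and 0.13.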

How the data were processed

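Labelled cRNA of 4 groups of 3T3-L1 adipocytes, 1 array each, was read with an Agilent scanner. The deposited intensity of a spot was background-subtracted and detrended within each array by Feature Extraction, per the file headers, which name version 10.7.1.1 and probe positions on mm9 (9.5.1.1 in the submitters' processing notes). A deposited table of the whole series also holds an intensity; its sorted values agree between arrays within 0.0474%, so it was taken as quantile normalized and used as an alternative. Control spots and outlier spots (106 to 173 an array) were left out. The log2 of the processed signal minus the log2 of the array's 75th percentile was used. Replicate spots were averaged; of several probes for a gene the brightest on average was taken. A gene entered a comparison when well above background on both arrays, and the threshold was 2-fold. With 1 array per group there was no test, and the number of arrays limits the precision. Symbols came from RefSeq accessions (GRCm38.p6). Alternatives were normexp (limma 3.58.1, offset 50), quantile normalization, array median scaling, the deposited table, the mean over probes and no filter on dim probes. The genes named beside the members follow 2 rules. For each other list they are the 2 highest and 2 lowest for daidzein+PT over PBS. For Cox8b, Cox7a1 and Cox6a2 they are the 5 nearest in their differences over PBS. Marker genes are named where they define a cell type or were picked after their values were seen. The members, lists and rules were chosen with earlier results of these data known. The calculations were tested on simulated data.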

Additional observations from a re-analysis of the deposited data

How the results depend on the processing

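Of 30 counts of members at 2-fold, 26 stayed within 1.5 times, as did 118 of 125 isoform minus partner differences and 46 of 50 interactions within 1 SD; no difference or interaction larger than its SD changed sign among these. Single differences for PT over PBS did change sign with array median scaling, Cox7a1 to -0.06, Cox7a2 to -0.12, Cox6a2 to -0.14, Cox6b1 to -0.20 and Cox4i2 to -0.19, and Cox4i2 for daidzein+PT over PBS to -0.10; Cox4i2, Cox6a1 and Cox8a, all within 0.06 of 0 for PT over PBS, also did so with other settings. For PT over PBS the count was 0, not 1, with normexp, quantile normalization, array median scaling and the deposited table. With normexp, which adds an offset and so compresses dim probes, Cox8b minus Cox8a was 1.68 for daidzein over PBS, 0.53 for PT over PBS, 2.56 for daidzein+PT over PBS and 2.03 for daidzein+PT over PT; Cox6a2 minus Cox6a1 was -1.39, -1.36 and -1.53 for daidzein over PBS, daidzein+PT over PBS and daidzein+PT over PT; the Cox8b interaction was 0.53. With quantile normalization the interactions of Cox6a1 and Cox8a were 0.027 and 0.077, and in the deposited table that of Cox6a1 was 0.027; the cause was not tested. Over all genes normexp left 116 higher and 16 lower for daidzein over PBS (207 and 69 in the main setting), 42 and 1 for PT over PBS (165 and 12), 284 and 37 for daidzein+PT over PBS (466 and 102), 61 and 2 for daidzein+PT over daidzein (200 and 19), and 228 and 42 for daidzein+PT over PT (388 and 160). Without the filter on dim probes, 1793 and 1145, 2196 and 881, 2664 and 1041, 2068 and 1099, and 2038 and 1781 of 34739 genes passed, in the same order. Quantile normalization gave 140 and 29 for PT over PBS, the submitters' deposited values 139 and 29, and the mean over probes 210 and 22 there and 251 and 30 for daidzein+PT over daidzein. Array median scaling gave 99 and 47 for PT over PBS, 365 and 237 for daidzein+PT over PBS, 134 and 37 for daidzein+PT over daidzein and 182 and 97 for daidzein over PBS. Signal over background limits the Cox8b folds: its PBS signal was 48.7, where the dimmest spot well above background had 14.3. No paired analysis was possible because each group has 1 array.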

Other observations

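The 3 mitochondria-encoded core subunits on the array, mt-Co1, mt-Co2 and mt-Co3, were mostly below the nuclear ones with daidzein, an observation made after their values were seen. For daidzein over PBS they lay from -0.07 to -0.02, while the 7 nuclear genes of the other subunits had a median of 0.25, with the lowest, Cox7a2l, at 0.01, and the ubiquitous partners one of 0.21. For daidzein+PT over PBS the medians were 0.14, 0.49 and 0.42, but Cox7a2l, at 0.07, lay below all 3. Quantile normalization put the daidzein medians at 0.06, 0.27 and 0.33, and array median scaling at -0.11, 0.18 and 0.14. The mitochondria-encoded median was thus the lowest of the 3 in these settings, while its sign was not the same. With quantile normalization the partners, and not the other nuclear subunits, had the highest median. The ranges of the mitochondria-encoded and other nuclear subunits then overlapped (0.05 to 0.07 against 0.06 to 0.35). The difference was not tested.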
